A study of Homo sapiens with 6 samples.

Results

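The BCL2 family holds the proteins that decide whether the outer membrane of the mitochondrion is opened during apoptosis. The 10 genes described here were found by their symbols, in a rule that has no threshold on a measured value: the pro-survival genes BCL2, BCL2L1 (BCL-XL) and MCL1, the effectors BAX and BAK1, and the BH3-only genes BBC3 (PUMA), PMAIP1 (NOXA), BCL2L11 (BIM), BID and BAD. All 10 were found among the 26255 genes listed for each sample. RNA was sequenced from 22RV1 cells, a castration-resistant prostate cancer (CRPC) cell line of human origin grown in RPMI 1640 with 10% FBS. There were 3 samples treated with 10 nM bruceantin (BCT), a plant-derived inhibitor of protein synthesis, for 24 h, and 3 samples treated with its solvent DMSO for the same time. The study of these samples proposes the chaperone HSP90 as a direct target of BCT, and neither action was tested here. All samples come from this single line, and nothing in the labels says that the 3 samples of a group were separate cultures, so p-values measure the spread between these samples, which may be technical.

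Pro-survival members carry a groove that takes up the BH3 segment of other family members and so holds the effectors in check. BAX and BAK1, once active, assemble into pores through which cytochrome c leaves the mitochondrion, and APAF1 and CASP9 then start the caspase cascade. BH3-only proteins sense damage or stress and act by filling the groove of the pro-survival proteins or by activating the effectors. They differ in their partners: PMAIP1 binds mainly MCL1, BAD binds BCL2 and BCL2L1 but not MCL1, and BCL2L11, BBC3 and the cleaved form of BID bind all of them. MCL1 protein is short-lived and needs steady synthesis, so the level of its RNA is not the level of its protein.

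The sequence that the family shares is the BH3 segment, through which its members bind each other. Its coding bases are shown for all 10 genes because they define the group whose RNA levels are compared here, with the codons of the conserved leucine and the conserved aspartate in capitals. Each line gives 42 bases, 5′ to 3′ on the coding strand, from GENCODE transcripts on GRCh37.
BCL2: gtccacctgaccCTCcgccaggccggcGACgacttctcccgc
BCL2L1: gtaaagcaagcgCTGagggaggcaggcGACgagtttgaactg
MCL1: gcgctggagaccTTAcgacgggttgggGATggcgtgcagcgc
BAX: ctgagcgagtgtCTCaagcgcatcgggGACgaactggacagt
BAK1: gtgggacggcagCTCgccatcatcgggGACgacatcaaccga
BBC3: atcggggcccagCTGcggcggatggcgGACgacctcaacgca
PMAIP1: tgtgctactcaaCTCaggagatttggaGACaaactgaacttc
BCL2L11: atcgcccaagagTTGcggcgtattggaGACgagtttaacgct
BID: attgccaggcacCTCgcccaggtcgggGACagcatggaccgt
BAD: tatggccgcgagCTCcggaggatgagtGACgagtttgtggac

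Each segment lies within 1 coding exon. The pro-survival segments are at chr18:60985582-60985623 in exon 2 of BCL2, chr20:30309725-30309766 in exon 2 of BCL2L1 and chr1:150551341-150551382 in exon 1 of MCL1, all on the minus strand. Those of the effectors are at chr19:49459032-49459073 in exon 3 of BAX on the plus strand and chr6:33543164-33543205 in exon 4 of BAK1 on the minus strand. Among the BH3-only genes, the segment is at chr19:47729836-47729877 in exon 3 of BBC3, chr22:18222181-18222222 in exon 4 of BID and chr11:64039094-64039135 in exon 3 of BAD, on the minus strand, and at chr18:57569893-57569934 in exon 2 of PMAIP1 and chr2:111907668-111907709 in exon 3 of BCL2L11, on the plus strand. Any pair of these segments shares between 13 and 27 of the 42 bases. The most alike pairs, with 27 identical bases each, are BAK1 with BID and BBC3 with BCL2L11. The first pair joins an effector to a BH3-only gene, and the second lies within the BH3-only class.

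The values are FPKM, fragments scaled to transcript length and to the mapped fragments of the sample, so levels of different genes can be set side by side per transcript length, while the number of reads behind a value is unknown. The values of a sample summed to 1169650 to 1572320 with DMSO and to 757534 to 799838 with BCT, of which a single small RNA gene, MIR6087, took 43.5% to 55.3% and 31.7% to 32.5%. They were used as deposited, and what equal sums would change is given after the results. Fold changes are differences of log2(FPKM + 0.1), which understates the change of low genes, tested with limma and Benjamini-Hochberg adjustment over the 12729 genes whose mean over the 6 samples reached 1 FPKM. A gene was called when its absolute log2 fold change was above 0.85 and its FDR below 0.05. In bulk RNA, fewer cells carrying a transcript and less of it per cell cannot be told apart. The epithelial identity of the line was checked on 8 markers, all of which passed the filter and of which KRT8 and KRT18 were called higher and KLK3 lower. KRT18, a keratin of simple epithelia, was at 336.8 ± 3.98 FPKM with DMSO and 1109 ± 41.7 with BCT (SD, n = 3). Of 8 markers of lymphoid, fibroblast, endothelial and muscle cells, PTPRC, CD3E, COL3A1, DCN, PECAM1 and DES had group means below 0.1 FPKM, while COL1A1 (1.43 and 5.83) and ACTA2 (3.91 and 14.1) were called higher with BCT, and their part in the members' values was not tested.

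All 10 members passed the filter. MCL1 and BAK1 were called higher with BCT and BCL2 and BID lower, and 6 members were not called. Over all genes tested, 31.6% were called, 13.9% higher and 17.8% lower, so a count of 2 of 10 in each direction is near that background. At an FDR below 0.05 alone, 6 members were higher and 3 lower, against 39.3% and 42.8% of all tested genes, or 82.1% together, and BAX, the weakest of the 6, passed in only 12 of 21 alternatives. For 9 of the 10 members the groups lay apart without overlap, which held for 85.3% of all genes tested. The members' median log2 fold change was 0.36, beside -0.04 for all genes tested. By class, the median was -0.03 for the pro-survival genes, 0.68 for the effectors and 0.57 for the BH3-only genes, and in the pro-survival and BH3-only classes members lay on both sides of 0.

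**Figure D1:**
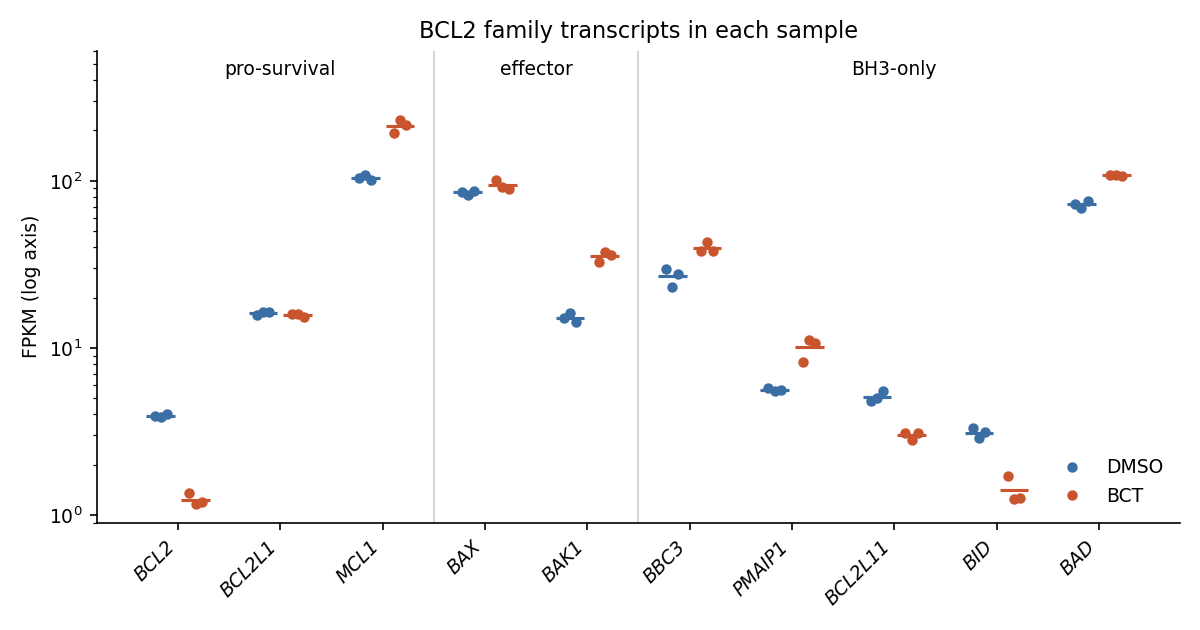
FPKM of each of the 10 BCL2 family genes in the 3 DMSO and the 3 BCT samples, on a log axis, grouped as pro-survival, effector and BH3-only, with a point per sample and a line at the group mean. MCL1, at 193.9 to 230.6 FPKM with BCT, lies above all other members, and BCL2L1 is the only member whose points overlap between the groups.

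Among the pro-survival genes, BCL2 (chr18:60790579-60987361) fell and MCL1 (chr1:150533371-150552214) rose, and BCL2L1 (chr20:30252255-30311792) showed no difference beyond its spread. BCL2, the founding member and the target of venetoclax, was at 3.92, 3.88 and 4.01 FPKM in the DMSO samples and at 1.35, 1.17 and 1.19 in the BCT samples. The groups were well apart, and the scatter within each was small. Its mean went from 3.94 ± 0.064 to 1.24 ± 0.098 FPKM (SD, n = 3), a log2 fold change of -1.60 (SE 0.098) and an adjusted p of 1.990e-06 in limma with Benjamini-Hochberg adjustment. Set among all genes tested, the level of BCL2 moved from percentile 23.0 with DMSO to percentile 4.84 with BCT, near the minimum mean for testing.

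MCL1, whose protein holds back BAK1 in particular, was at 104.0, 108.1 and 101.4 FPKM in the DMSO samples and at 193.9, 230.6 and 214.2 in the BCT samples. Every BCT sample lay above every DMSO sample, and the BCT samples scattered more. The mean was 104.5 ± 3.36 FPKM with DMSO and 212.9 ± 18.4 with BCT, a log2 fold change of 1.02 (SE 0.068) with a limma adjusted p of 2.800e-06. Its 95% interval of 0.87 to 1.18 only just clears the fold threshold of 0.85. A limma test against that threshold itself gave an adjusted p of 0.0848. After correction for GC content and transcript length, the log2 fold change of MCL1 was 0.86, barely above the threshold. MCL1 was already at percentile 92.8 of all tested genes with DMSO and was at 97.3 with BCT.

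BCL2L1 encodes BCL-XL, which binds both effectors. It was at 15.7, 16.3 and 16.3 FPKM in the DMSO samples and at 16.0, 15.9 and 15.4 in the BCT samples, and the ranges overlapped. The log2 fold change was -0.03, with a 95% interval of -0.14 to 0.08 and a limma adjusted p of 0.556, so a change of the size seen for BCL2 or MCL1 lies outside the interval. A lncRNA on the opposite strand, ABALON, shares 41.3% of the annotated exonic bases of BCL2L1 and was listed at 8.75 to 9.57 FPKM with DMSO and 8.50 to 9.12 with BCT. The library kit does not mark the strand, so reads from the shared bases cannot be told apart.

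Of the effectors, BAK1 rose and BAX was not called. BAK1 (chr6:33540324-33548070), which sits in the mitochondrial outer membrane at all times, was at 15.0, 16.1 and 14.4 FPKM in the DMSO samples and at 32.8, 37.5 and 35.7 in the BCT samples. Every BCT sample lay well above every DMSO sample. Its mean rose from 15.2 ± 0.864 to 35.4 ± 2.39 FPKM (SD, n = 3), a log2 fold change of 1.22 (SE 0.068; limma adjusted p 1.388e-06), the largest increase among the 10 members in the values as deposited. BAX (chr19:49458072-49465055), which waits in the cytosol and moves to the mitochondrion, was at 85.6, 82.3 and 87.4 FPKM in the DMSO samples and at 101.3, 92.1 and 89.6 in the BCT samples. The groups came close but did not overlap, and BCT replicate 1 was the highest. The log2 fold change of BAX was 0.15, with a 95% interval of 0.01 to 0.28 and a limma adjusted p of 0.0451, far from the fold threshold. It missed the FDR when any of 5 of the 6 samples was left out (limma adjusted p up to 0.127), and was 0.094 without BCT replicate 1, 0.33 after quantile normalization and 0.37 after the correction for GC content and length. BAX RNA therefore remained the more abundant of the pair, with BAK1 at 0.178 ± 0.0156 of the BAX level with DMSO and 0.377 ± 0.0459 with BCT.

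**Figure D2:**
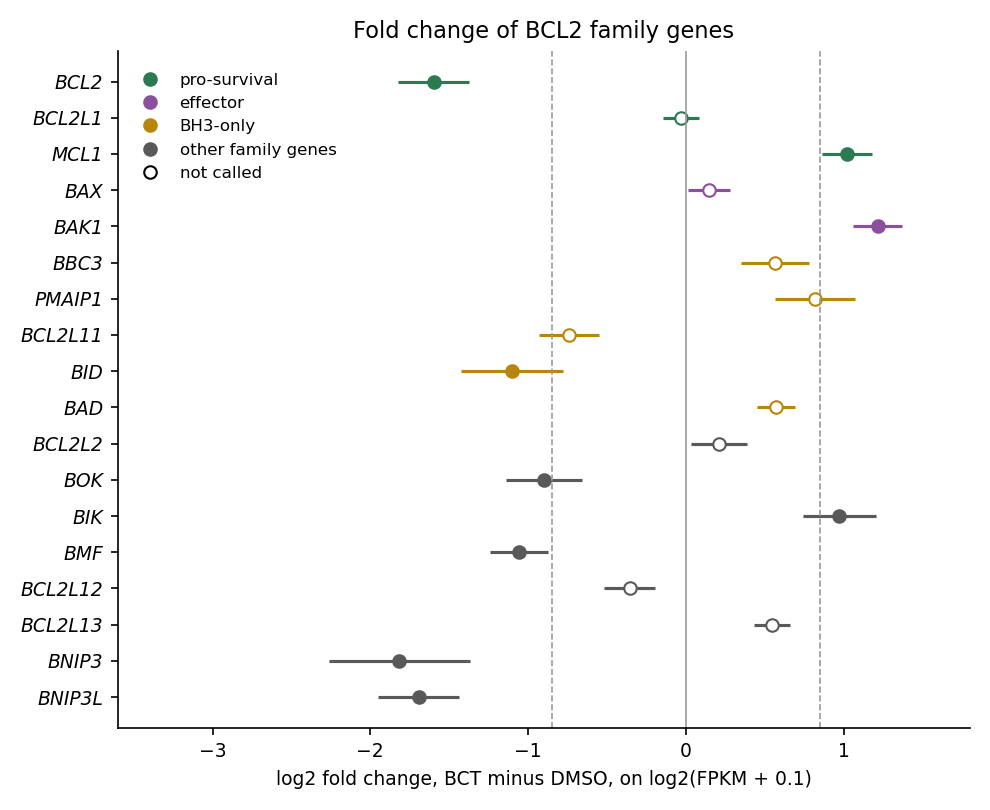
Log2 fold change of each member and of the 8 tested genes of the wider family, BCT minus DMSO on the log2(FPKM + 0.1) scale. Bars are 95% confidence intervals, and dashed lines mark the fold threshold of 0.85 in either direction. Among the members, BAK1 and MCL1 lie past the upper line and BCL2 and BID past the lower line, while PMAIP1 (0.82) and BCL2L11 (-0.74) lie just inside. In the wider family, BIK lies past the upper line and BNIP3, BNIP3L, BMF and BOK past the lower line.

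Of the 5 BH3-only genes, BID (chr22:18216904-18257536) was called lower and none was called higher. BID links death receptors to the mitochondrion once CASP8 has cleaved it. It was at 3.30, 2.90 and 3.14 FPKM in the DMSO samples and at 1.72, 1.25 and 1.26 in the BCT samples. The groups did not overlap, and BCT replicate 1 was the highest of its group. The mean was 3.11 ± 0.201 with DMSO and 1.41 ± 0.265 with BCT, a log2 fold change of -1.10 (SE 0.139) with a limma adjusted p of 1.010e-04. At this low level the fold depends on the pseudocount: with 1 FPKM added in place of 0.1 it was -0.78, and BID was not called, nor was it (-0.37) with equal FPKM sums.

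BCL2L11, whose product BIM can both fill the groove of every pro-survival member and activate the effectors, was at 4.80, 5.04 and 5.50 FPKM in the DMSO samples and at 3.09, 2.83 and 3.11 in the BCT samples. All BCT samples were lower than all DMSO samples. The log2 fold change was -0.74 (95% interval -0.93 to -0.55; limma adjusted p 4.528e-05), past the FDR but short of the fold threshold. A lncRNA on the opposite strand, MIR4435-2HG, shares 10.8% of its exonic bases and went from 0 to 0.25 FPKM in the DMSO samples to 2.95 to 3.78 in the BCT samples.

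PMAIP1, the partner of MCL1, was at 5.77, 5.49 and 5.63 FPKM in the DMSO samples and at 8.26, 11.2 and 10.8 in the BCT samples. The groups were apart, with BCT replicate 1 below the other two. The log2 fold change of 0.82 (95% interval 0.56 to 1.07; limma adjusted p 1.503e-04) missed the fold threshold by a small margin, and without BCT replicate 1 it was 0.95 and PMAIP1 was called higher, as it was after scaling by the upper quartile (0.86) or by the median of ratios (0.85).

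BBC3, whose product binds every pro-survival member, was at 29.6, 23.2 and 27.7 FPKM in the DMSO samples and at 38.1, 42.8 and 37.9 in the BCT samples, without overlap. BAD, which growth factor signals silence through phosphorylation, was at 72.6, 68.5 and 76.0 FPKM in the DMSO samples and at 108.5, 107.8 and 106.5 in the BCT samples, also without overlap and with very little scatter in the BCT group. Their log2 fold changes were nearly equal, 0.57 (95% interval 0.35 to 0.78; limma adjusted p 5.434e-04) for BBC3 and 0.57 (0.45 to 0.69; 1.345e-05) for BAD, and neither was called. After correction of the fold changes for GC content and transcript length, they were 0.86 and 0.90 and both genes were called higher, as were 13.1% of all genes tested under that correction. GPR137, a gene on the opposite strand, shares 23.7% of the exonic bases of BAD and was at 27.2 to 30.2 FPKM with DMSO and 32.6 to 34.1 with BCT.

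By mean FPKM, MCL1 stood first in both groups. With DMSO the order ran MCL1, BAX, BAD, BBC3, BCL2L1, BAK1, PMAIP1, BCL2L11, BCL2 and BID, where BCL2L1 overlapped BAK1 and PMAIP1 overlapped BCL2L11, and all other neighbours were apart. With BCT it ran MCL1, BAD, BAX, BBC3, BAK1, BCL2L1, PMAIP1, BCL2L11, BID and BCL2, where only the last pair overlapped. BAD and BAX had thus changed places, BAK1 had passed BCL2L1, and BCL2 had become the lowest by mean.

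Ratios within a sample do not depend on a scaling factor per sample, and they were taken to compare the classes. They are given without a p-value, because with 3 samples a group the smallest p of an exact permutation test is 0.1. The summed FPKM of the pro-survival genes was 124.5 ± 3.35 with DMSO and 229.9 ± 18.3 with BCT, that of the effectors 100.3 ± 1.69 and 129.7 ± 4.38, and that of the BH3-only genes 113.0 ± 6.93 and 161.7 ± 3.61 (SD, n = 3). The BH3-only sum over the pro-survival sum was 0.939, 0.819 and 0.969 in the DMSO samples and 0.756, 0.669 and 0.691 in the BCT samples, so every BCT sample was lower. This direction rested on MCL1: with MCL1 left out, the ratio was 5.64 ± 0.376 with DMSO and 9.51 ± 0.259 with BCT, and every BCT sample was higher. BAD, which does not bind MCL1, made up 64.0% of the BH3-only sum with DMSO and 66.6% with BCT. With BAD left out, the ratio was 0.327 ± 0.0363 and 0.236 ± 0.0064, again lower with BCT. The lower ratio was not kept under the correction for GC content and length, which changes genes unequally: there it was 0.787 ± 0.0441 with DMSO and 0.819 ± 0.0313 with BCT, and the groups overlapped.

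**Figure D3:**
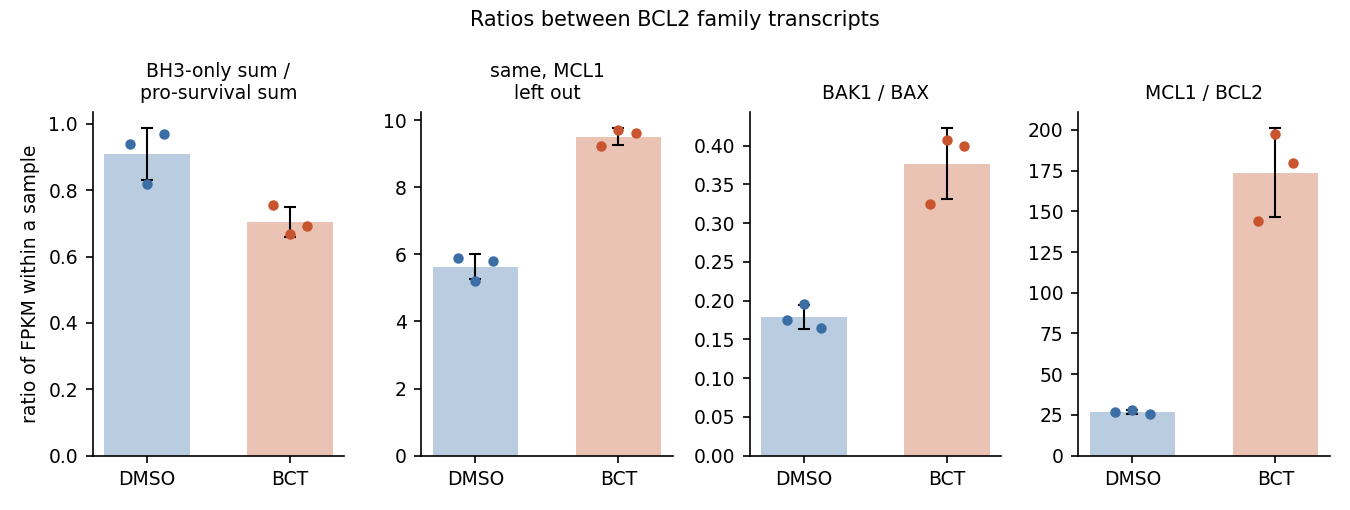
Ratios of FPKM within each sample for 3 DMSO and 3 BCT samples, with bars for the mean, error bars for the SD and a point per sample; each panel has its own axis. The BH3-only sum over the pro-survival sum is lower in every BCT sample (0.669 to 0.756 against 0.819 to 0.969), and higher in every BCT sample once MCL1 is left out; corrected for GC content and length, which is not drawn, the first ratio overlapped between the groups.

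Within the pro-survival class the composition moved towards MCL1. MCL1 made up 83.9% ± 0.52 of the summed pro-survival FPKM with DMSO and 92.6% ± 0.684 with BCT, while BCL2L1 went from 12.9% to 6.89% and BCL2 from 3.16% to 0.542%. The MCL1 level was 26.6 ± 1.27 times that of BCL2 with DMSO and 173.8 ± 27.4 times with BCT, and 6.48 ± 0.237 and 13.5 ± 1.22 times that of BCL2L1. The levels of BAK1 and PMAIP1, which both bind MCL1, were also set against it. BAK1 was at 0.145 ± 0.0036 of MCL1 with DMSO and 0.166 ± 0.0033 with BCT, and higher in every BCT sample. PMAIP1 was at 0.0539 ± 0.0027 and 0.0472 ± 0.0040. Its groups nearly touched, with 0.0508 in DMSO replicate 2 and 0.0503 in BCT replicate 3. Among the BH3-only genes, BCL2L11 was at 0.193 ± 0.028 of BBC3 with DMSO and 0.0765 ± 0.0091 with BCT.

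**Figure D4:**
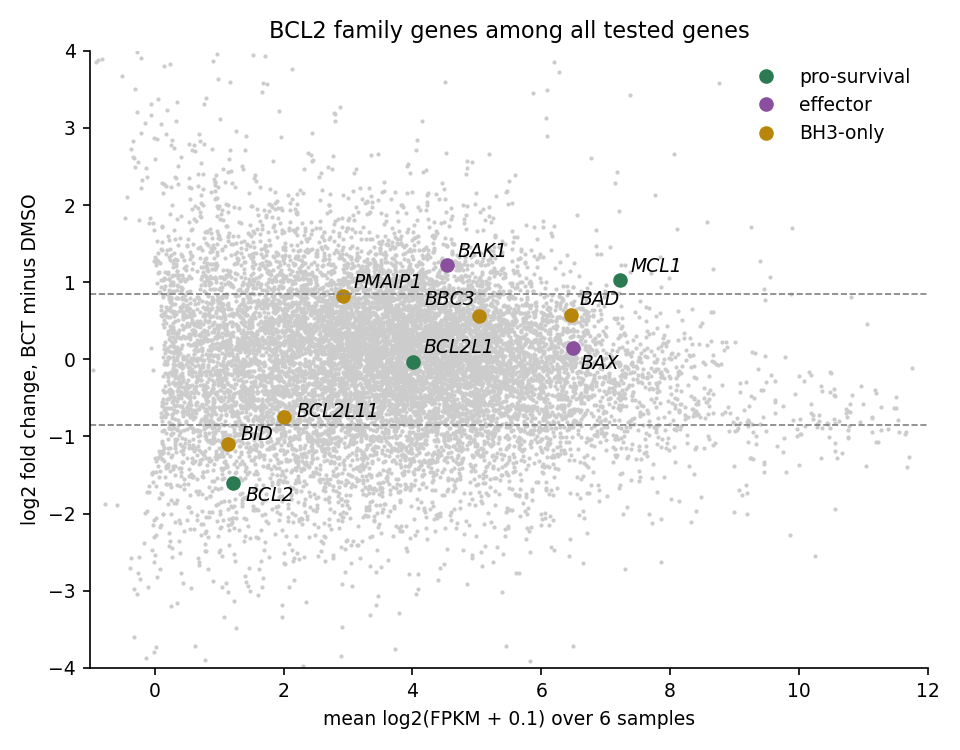
Log2 fold change against mean log2(FPKM + 0.1) for all tested genes in grey, with the 10 members labelled. The axes leave out 111 genes, among them all with an absolute log2 fold change above 4, and the members lie within the main cloud, between -1.60 for BCL2 and 1.22 for BAK1.

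The wider family was followed with 13 further genes, of which 8 passed the filter. BIK was called higher, BNIP3, BNIP3L, BMF and BOK were called lower, and BCL2L2, BCL2L12 and BCL2L13 were not called, with a median log2 fold change of -0.63. Of all genes tested, 13.9% were called higher and 17.8% lower. BIK, a BH3-only protein of the endoplasmic reticulum, was at 5.69, 5.30 and 5.71 FPKM in the DMSO samples and at 9.35, 11.7 and 12.2 in the BCT samples (log2 fold change 0.97; limma adjusted p 3.009e-05). BMF, a BH3-only protein that can be tethered to the actin skeleton, was at 4.90, 4.67 and 5.32 FPKM in the DMSO samples and at 2.37, 2.35 and 2.26 in the BCT samples (-1.06; 5.508e-06). BOK, an effector-like member, was at 8.78, 8.43 and 10.6 FPKM in the DMSO samples and at 5.49, 4.60 and 4.65 in the BCT samples (-0.90; 6.127e-05). In all 3 genes the groups were clearly apart.

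BNIP3 and BNIP3L, which are mitophagy receptors more than killers, had the largest decreases of the wider family. BNIP3 was at 67.0, 39.2 and 69.3 FPKM in the DMSO samples and at 16.4, 15.2 and 16.4 in the BCT samples, a log2 fold change of -1.82 (SE 0.194; limma adjusted p 3.579e-05). DMSO replicate 2 stood well below the other DMSO samples and still above all BCT samples. BNIP3L showed the same shape, at 41.2, 30.7 and 38.5 FPKM in the DMSO samples and at 12.1, 10.3 and 11.3 in the BCT samples (-1.69; 2.627e-06). BCL2L2, the pro-survival protein BCL-w, had a log2 fold change of 0.21, the mitophagy receptor BCL2L13 of 0.54, and BCL2L12 of -0.36, and these 3 passed the FDR only. BCL2L2 shares 16.8% of its exonic bases with its readthrough transcript to PABPN1 on the same strand. That transcript was listed at 42.4 to 44.9 FPKM with DMSO and 31.6 to 33.3 with BCT. BCL2L12 shares 25.9% with IRF3 on the opposite strand, which was at 36.8 to 39.4 FPKM with DMSO and 55.7 to 66.7 with BCT.

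The 5 genes under the filter were HRK, BCL2A1, BCL2L10, BCL2L14 and BCL2L15. BCL2A1, a pro-survival gene of blood cells, was listed at 0 throughout the DMSO group and at 0.033 to 0.063 FPKM after BCT. When the filter was dropped, 20.2% of all genes were called and 9.78% called higher, and BCL2L10 (0.319 and 0.943 FPKM; log2 fold change 1.31; limma adjusted p 3.145e-04) and BCL2L14 (0.274 and 0.849 FPKM; 1.34; 5.708e-04) were among them, at levels far below those of the 10 members. HRK and BCL2L15 overlapped between the groups. For a wider BH3-only over pro-survival ratio, BIK, BMF and HRK were added to the first sum and BCL2L2 and BCL2L12 to the second. That ratio was 0.718 ± 0.0583 with DMSO and 0.641 ± 0.0277 with BCT, and the groups overlapped. Counting BCL2L12 as pro-survival was a choice, and its level was lower in every BCT sample. The overlap may rest on that choice, so it does not show that widening the family removes the lower ratio. The other genes of the wider family, among them BNIP3, BNIP3L, BCL2A1 and BCL2L10, were left out of the wider ratio. Other choices, among them leaving out BCL2L12, were not tested.

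Downstream of the pore, 12 genes of the mitochondrial step and the caspases were all tested, with 1 called higher, 2 lower and 9 not called (median log2 fold change -0.22), near the 13.9% higher and 17.8% lower of all genes tested. CASP9, the initiator caspase, was at 5.52, 5.21 and 5.61 FPKM in the DMSO samples and at 12.2, 13.9 and 14.8 in the BCT samples (1.303; limma adjusted p 1.897e-06). Its platform APAF1 went the other way, at 6.53, 6.64 and 6.51 FPKM in the DMSO samples and at 2.32, 2.08 and 2.03 in the BCT samples (-1.57; 9.546e-07). VDAC1, the main channel of the outer membrane, went from 117.7 ± 1.93 to 59.0 ± 6.52 FPKM (-1.001; 5.500e-06). CASP9 and APAF1, which join in the apoptosome, thus moved in opposite directions, while CYCS, the gene of cytochrome c, had a log2 fold change of -0.31 and was not called.

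Among 9 transcription factors known to act on the BH3-only genes, 8 were tested, at a median log2 fold change of 1.03. Of these, 4 were called higher (JUN, DDIT3, ATF4 and FOXO1), 2 lower (MYC and E2F1) and 2 not called, beside 13.9% higher and 17.8% lower of all genes tested. JUN, which with its partners drives BCL2L11 in neurons, went from 20.1 ± 0.585 to 229.2 ± 33.4 FPKM (3.50; limma adjusted p 1.593e-07). The stress factors DDIT3 (CHOP), at 76.0 ± 1.44 and 288.9 ± 28.7 FPKM, and ATF4, at 527.6 ± 11.9 and 1721 ± 147 FPKM, rose by 1.92 and 1.70 on the log2 scale. MYC and E2F1 fell by 2.18 and 2.08. FOXO3, which acts on BCL2L11 and BBC3, was at 6.03 ± 0.348 and 9.91 ± 0.894 FPKM (0.71), short of the fold threshold. Of 17 genes that act on the members as proteins, 3 were called higher and 3 lower (median 0.14), near those shares of all genes tested. HUWE1 (1.01) and FBXW7 (0.92), ubiquitin ligase components for which MCL1 is a substrate, and DYNLL1 (0.91), a dynein light chain that binds BCL2L11 and BMF, were higher. PIM1 (-1.61), AKT1 (-1.01) and PIM2 (-0.93), kinases that phosphorylate BAD, were lower. PIM3, a further BAD kinase and more abundant than PIM1 and PIM2, was at 81.4 ± 1.51 and 126.9 ± 7.88 FPKM (0.64; limma adjusted p 1.225e-05) and was not called.

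The promoter of BAX is shown for a motif that is repeated in it. RefSeq promoter windows on GRCh38.p14, of 250 bases before and 50 after a transcript start, were found for 9 of the 10 members, with none for MCL1. The motifs described are, on both strands, CACGTG, the E-box of MYC, the CRE TGACGTCA, the ATF4 element TGATGNAA and the E2F sites TTTCGCGC and TTTGGCGC. The 250 bases before the BAX start (chr19:48954625-48954874, plus strand) hold CACGTG 4 times, in capitals, with first bases at -138, -93, -45 and -14 from the start.
BAX: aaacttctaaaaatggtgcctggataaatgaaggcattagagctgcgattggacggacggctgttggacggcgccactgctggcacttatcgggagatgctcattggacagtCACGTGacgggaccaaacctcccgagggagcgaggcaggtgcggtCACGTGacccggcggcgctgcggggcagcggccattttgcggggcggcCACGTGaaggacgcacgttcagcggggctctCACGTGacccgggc

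Of all 35116 windows, 7.26% hold CACGTG at least once, a share that does not say how common repeats of it are. Among the 15 windows of the members, the BBC3 window and 2 of the 5 BID windows hold CACGTG beside that of BAX. The CRE (1.85% of all windows), the ATF4 element (3.62%) and the E2F sites (1.15%) were found in no window of the members. The matches are letters only, and nothing measured here says whether a factor was bound.

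Because the FPKM sums differed between the groups, the members were also followed under other scalings. Rescaling to equal sums moved the median over all genes tested from -0.04 to 0.72 on the log2 scale, or to 0.34 when MIR6087 was left out of the sums. The split of all called genes then went from 1764 higher and 2263 lower to 5609 and 668, or to 3369 and 1208 without MIR6087. Under equal sums 6 members were called higher (MCL1, BAX, BAK1, BBC3, PMAIP1 and BAD) and 1 lower (BCL2), and BCL2L1 (0.73) and BCL2L11 (0.0055) turned from below to above 0. With MIR6087 left out, 5 were called higher and 1 lower, and BCL2L1 was at 0.35. Relative to the median of all genes, BCL2 stayed between -1.76 and -1.11 and BAK1 between 1.20 and 1.43 under every alternative that tested them, and BCL2L1 between -0.07 and 0.12. BCL2 and BAK1 were called, in their own direction, under all 22 and 23 alternatives, several of which leave the fold change as it is by construction.

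**Figure D5:**
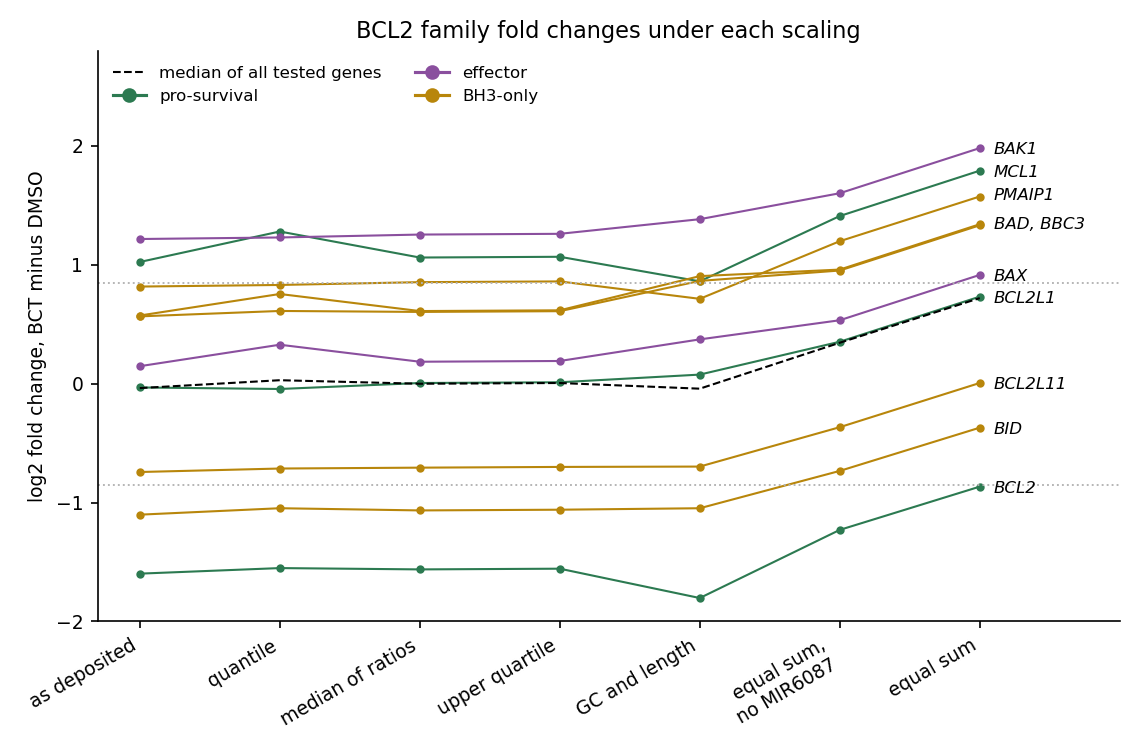
Log2 fold change of each member under the deposited values, other scalings and the GC and length correction, with the median of all tested genes dashed and the fold threshold of 0.85 in either direction dotted. All members lie higher under equal FPKM sums, where the median of all genes is at 0.72 and BCL2L11 and BCL2L1 are above 0, while BAK1 stays above the upper and BCL2 below the lower dotted line at every setting.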

How the data were processed

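The authors purified total RNA from 22RV1 cells, made libraries with a TruSeq RNA kit (v2) that does not mark strand, trimmed reads with Trimmomatic 0.38, aligned them to hg19 with HISAT2 and deposited FPKM values per gene and sample. Per the labels HTSeq was also used, whereas the methods of the study name StringTie. The version of the gene annotation is not given in the sources used here. FPKM holds no counts, so no count test was run.

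From the deposited FPKM values, log2(FPKM + 0.1) was fitted in R 4.3.3 by limma 3.58.1, its eBayes step set to follow the mean-variance trend, on all 3 DMSO and 3 BCT samples, for genes averaging 1 FPKM or more, with Benjamini-Hochberg adjustment over the 12729 genes tested. The steps were tested on simulated data. Members, gene lists and tests were chosen with earlier results of these data known. The genes named are the members, the wider family, DDIT3, ATF4, FOXO3 and the 4 called genes with the largest change in each further list. FOXO1, FBXW7, DYNLL1 and CYCS fall outside this rule and were picked with their values in view, as was PIM3, and some genes the rule covers and 1 motif searched are not reported here. Exons, positions and BH3 coding bases come from GENCODE on GRCh37, and promoters from RefSeq on GRCh38.p14, whose coordinates were not converted. Alternatives covered the pseudocount, the filter, scaling, the FDR, the test, GC content with length (known for 97.4% of tested genes), the replicate block and each sample left out. Added after seeing the data were equal sums without MIR6087 and the ratio without BAD, corrected for GC content and length, or quantile normalized.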

Additional observations from a re-analysis of the deposited data

How the results depend on the processing

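Over the 227 alternative values of the 10 members, 201 kept their direction and whether they were called, 14 were newly called, 5 were no longer called and 7 turned in sign. Alternatives of the filter, the FDR, the test and the replicate block alone leave the fold change as it is by construction. Direction could not turn in those, so the 201 values overstate how stable the members are. With values rescaled to equal FPKM sums, 6277 genes were called, 5609 higher and 668 lower, with 6 members higher and 1 lower: BCL2L1 was at 0.73, BAX at 0.91, BBC3 at 1.33, PMAIP1 at 1.57, BCL2L11 at 0.0055, BID at -0.37 and BAD at 1.34. With MIR6087 left out of the sums, 3369 genes were higher and 1208 lower, with 5 members higher and 1 lower, and BCL2L1 was at 0.35, BBC3 at 0.95, PMAIP1 at 1.20, BID at -0.73 and BAD at 0.96. Upper quartile scaling put BCL2L1 at 0.011 and PMAIP1 at 0.86, and the median of ratios put them at 0.0052 and 0.85. The limma test against the fold threshold called 2425 genes, 1033 higher and 1392 lower, among them 1 member higher (BAK1) and 1 lower (BCL2), and no longer called MCL1 (1.02) or BID (-1.10). A pseudocount of 1 left 1 member lower, with BID at -0.78. A minimum mean of 5 FPKM gave 1150 genes higher and 0 members lower, since BCL2, BID and BCL2L11 were not tested there. The correction for GC content and length called 1625 genes higher and 2117 lower, with 4 members higher, BCL2L1 at 0.076, BBC3 at 0.86 and BAD at 0.90. Leaving out each sample in turn gave PMAIP1 0.73 to 0.95. The log2 ratio of BH3-only to pro-survival sums, -0.36, was 0.76 without MCL1 and 0.058 after the correction for GC content and length. With BIK, BMF, HRK, BCL2L2 and BCL2L12 added to their sums it was -0.16. Apart from what the construction of an alternative shows, the cause of these changes was not tested.

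Samples with the same replicate number hardly deviated together (correlations of 0.0328 to 0.116, mean 0.061). Such low values, from deviations around means of 3 samples, cannot settle whether the numbers pair the samples, so a fit with the replicate block is also given. With the replicate block, 4033 genes were called and 2 members in each direction, and BAX missed the FDR (limma adjusted p 0.0599). The replicate block with the GC and length correction called 4 members higher, with BCL2L1 at 0.076, BBC3 at 0.86 and BAD at 0.90. Read depth behind the low values of BCL2 and BID is unknown.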
